A study of Mus musculus with 4 samples.

Results

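Broad domains of H3K27me3, the trimethylation of lysine 27 on histone H3, were described in mouse erythro-myeloid progenitors (EMPs) of the yolk sac at embryonic day 10.5. The broad domains were the peaks of the 15000-EMP library that lie on chromosomes 1 to 19 and span more than 5 kb. They were selected on their width in that library and numbered 866 of 14959 autosomal peaks, or 5.79%, and of 15282 peaks in all. Width is therefore a description here and supports no comparison.

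H3K27me3 was profiled by CUT&RUN, in which a nuclease brought in by an antibody cuts the DNA around the mark and the fragments set free are sequenced. The series held 4 libraries, with an H3K27me3 and an IgG library from 500 EMPs and the same pair from 15000 EMPs, hence 1 library per group and no replicate. All 4 groups carried the same label, a floxed Ezh2 genotype with a Tie2-Cre notation beside the words wild type, on the C57BL/6 strain. Tie2-Cre acts in endothelium and its blood progeny, and the words wild type were followed here, as the study does. EMPs were sorted as cells that carry the receptor KIT, the integrin CD41 and low-affinity Fc receptors. The IgG libraries served as the control in peak calling and were not analysed here. No test between the libraries was possible, shares are given with 95% Wilson intervals, and medians with exact binomial intervals. These intervals cover counting error only, and neighbouring domains or genes are not independent of each other. The 500-EMP list came from a separate library and was not used to select the domains. Cell number cannot be told apart from instrument, from read length (76 bp for 500 EMPs and 59 bp for 15000 EMPs), from PCR cycles (17 and 16), from the peak-calling threshold (p of 0.01 and 0.05) or from depth. The lists hold no read counts, but the study's reporting summary states fewer reads and a lower alignment rate for the smaller library, and the part of these in the comparisons below was not tested.

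Polycomb repressive complex 2 places H3K27me3 through its catalytic subunit Ezh2, and the mark is read by Polycomb complexes that keep genes silent. It gathers over CpG islands, the stretches of DNA that keep many CG dinucleotides and often hold gene starts. At genes that specify other lineages in the embryo, such as the Hox clusters, it can spread over many kilobases. Broad blankets of the mark over developmental regulators are a known feature of progenitor cells, in which genes of the cell's own programme are usually free of it.

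The sequences of 5 of the domains are shown first, as examples of parts of domains that differ in CpG content and in whether a 500-EMP peak covered them. Each is a window of 200 bp of the GRCm38 reference, read on the plus strand with every CG in capitals. Where the window is the CpG-richest, it was taken outside annotated untranslated regions. The widest domain, at the start of the neural crest and muscle regulator Pax3, had its CpG-richest window at chr1:78216959-78217158, outside any annotated gene. This window held 34 CG and no base of it lay in a 500-EMP peak.
Pax3, CpG-richest: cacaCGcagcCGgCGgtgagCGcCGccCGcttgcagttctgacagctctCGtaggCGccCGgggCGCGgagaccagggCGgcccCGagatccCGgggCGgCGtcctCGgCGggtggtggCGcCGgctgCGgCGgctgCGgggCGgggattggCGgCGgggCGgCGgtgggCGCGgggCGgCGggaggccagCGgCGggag
The middle of the widest 500-EMP piece in the same domain, at chr1:78205267-78205466 and also outside genes, held 2 CG.
Pax3, widest piece: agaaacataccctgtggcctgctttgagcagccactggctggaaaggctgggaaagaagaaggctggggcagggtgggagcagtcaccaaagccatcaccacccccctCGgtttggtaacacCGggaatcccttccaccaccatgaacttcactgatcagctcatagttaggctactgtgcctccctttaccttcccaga
The second widest domain, at Hoxb13, repeated this contrast with 18 CG at chr11:96203496-96203695, where no base was covered, and 5 CG at chr11:96177322-96177521 in the widest piece.
Hoxb13, CpG-richest: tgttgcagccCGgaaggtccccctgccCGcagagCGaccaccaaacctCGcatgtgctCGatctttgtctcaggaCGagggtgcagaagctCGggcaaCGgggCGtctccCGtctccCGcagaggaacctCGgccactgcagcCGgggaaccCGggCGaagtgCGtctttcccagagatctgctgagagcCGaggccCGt
Hoxb13, widest piece: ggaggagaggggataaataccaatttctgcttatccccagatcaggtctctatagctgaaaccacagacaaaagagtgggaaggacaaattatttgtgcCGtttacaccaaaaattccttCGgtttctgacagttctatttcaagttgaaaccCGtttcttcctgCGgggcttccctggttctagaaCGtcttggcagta
The domain over Hoxa10 and Hoxa11 was the most covered by 500-EMP peaks, yet its CpG-richest window, in coding sequence of Hoxa11 at chr6:52245004-52245203, held 31 CG and no covered base.
Hoxa11, CpG-richest: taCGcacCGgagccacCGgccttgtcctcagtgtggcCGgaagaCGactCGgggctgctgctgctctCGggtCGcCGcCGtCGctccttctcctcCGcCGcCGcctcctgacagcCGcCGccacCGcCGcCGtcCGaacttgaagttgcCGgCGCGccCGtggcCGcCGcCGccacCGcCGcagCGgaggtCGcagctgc
A pair of domains without any 500-EMP piece differed in CpG content, with 21 CG in an intron of Car10, a carbonic anhydrase relative, at chr11:93099084-93099283 and 6 CG in an intron of the membrane adaptor Ank2 at chr3:127247005-127247204.
Car10, CpG-richest: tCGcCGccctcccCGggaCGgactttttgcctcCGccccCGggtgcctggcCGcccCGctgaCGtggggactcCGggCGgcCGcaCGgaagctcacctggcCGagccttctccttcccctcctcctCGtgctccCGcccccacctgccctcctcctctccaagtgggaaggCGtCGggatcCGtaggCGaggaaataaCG
Ank2, CpG-richest: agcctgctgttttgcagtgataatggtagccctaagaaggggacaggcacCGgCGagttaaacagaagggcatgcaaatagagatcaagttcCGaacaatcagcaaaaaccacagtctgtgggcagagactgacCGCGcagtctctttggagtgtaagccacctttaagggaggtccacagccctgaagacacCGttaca

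The domains covered 7.1 Mb, which was 0.296% of the known autosomal sequence and 30.1% of the length that the 15000-EMP list marked on the autosomes. Their median width was 6810 bp (interquartile range 5699.8 to 9079.5 bp), and the median over all autosomal peaks, from which they were chosen by width, was 778 bp. Of the 866, 179 exceeded 10 kb, 53 exceeded 15 kb and 20 exceeded 20 kb. The limit cut a continuous range, with 289 domains between 5 and 6 kb and 450 peaks between 4 and 5 kb. Just inside it lay peaks of 5001 bp in the phosphatase gene Ptprn2 and at Bean1 and of 5005 bp at the gap junction gene Gjd2. Just outside lay peaks at Cdh6 (4997 bp), Pllp (4992 bp) and Galr2 (4987 bp).

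The widest domains lay at homeobox and other patterning genes. The Pax3 domain spanned 33527 bp at chr1:78186959-78220485, from -23.352 to 10.175 kb around the gene start, and held 19 pieces from 500 EMPs that covered 50.6% of it. A piece is the part of a 500-EMP peak that lies in the domain. Hoxb13, the most posterior gene of its cluster, followed with 29727 bp (12 pieces, 76.3% covered). The linked limb and forebrain genes Dlx5 and Dlx6 shared 28011 bp (16 pieces, 65.5%), and Hoxa3, Hoxa5 and Hoxa6 shared 27239 bp (11 pieces, 74%). The hypothalamic regulator Sim1 had 25424 bp (12 pieces, 56.2%), the Hoxc5, Hoxc9 and Hoxc10 domain 25335 bp (9 pieces, 69.9%) and the pharyngeal pouch regulator Pax9 24427 bp (17 pieces, 42.5%). Also among the 10 widest, a domain overlapping Nr2f1 (23061 bp) held no start by the outermost gene position. Foxa2, the endoderm pioneer factor, had 22750 bp (13 pieces, 58.1%).

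**Figure D1:**
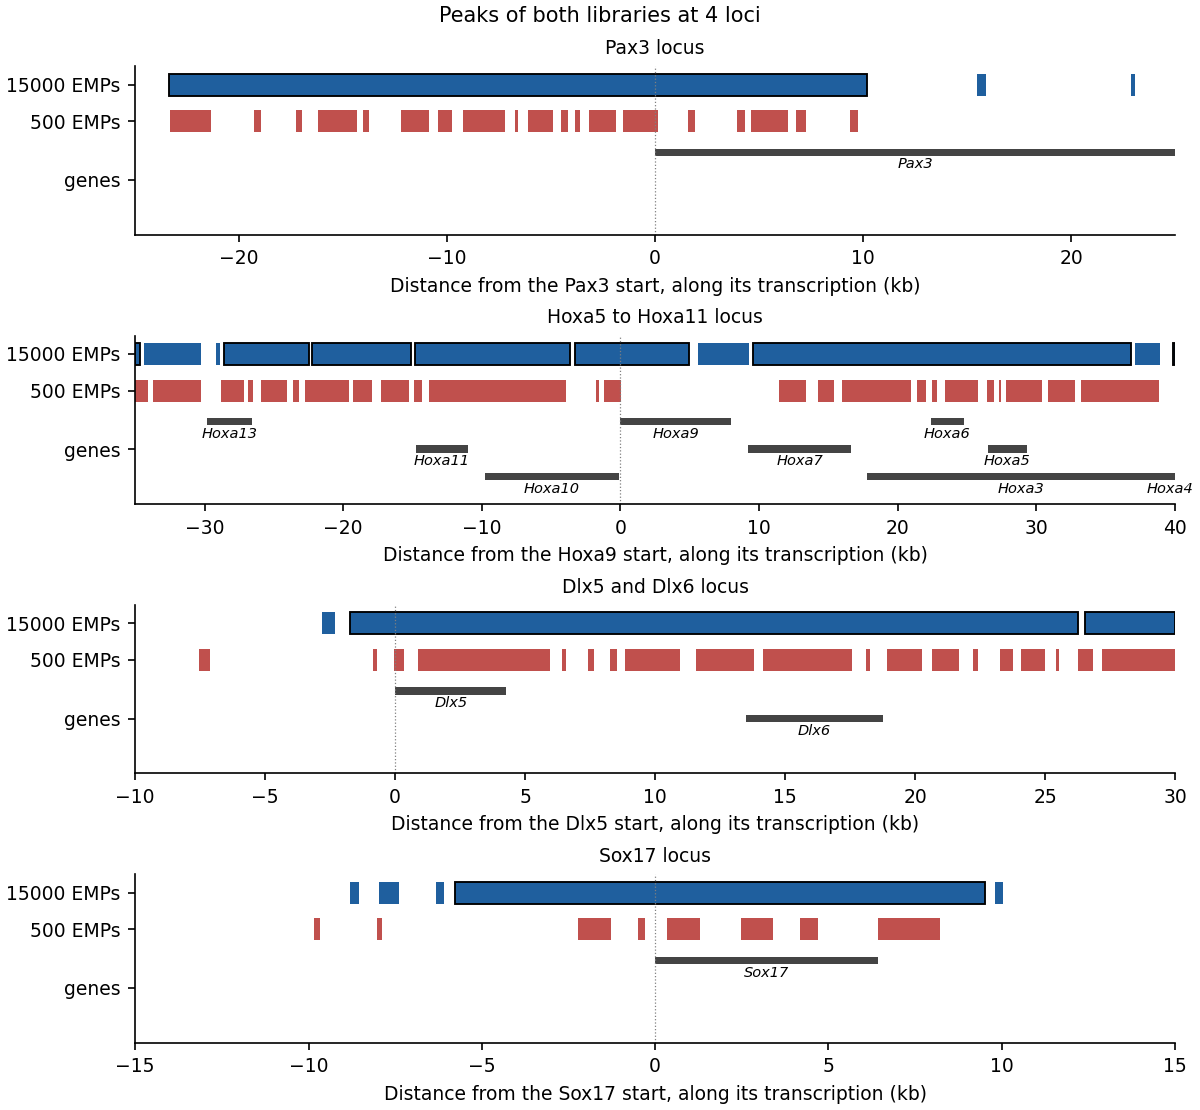
Peaks of the 15000-EMP library (blue, outlined in black where wider than 5 kb) and of the 500-EMP library (red) at 4 loci, with protein-coding genes below, against the distance in kb from the named gene start along its direction of transcription (features are clipped at the panel edges). The Pax3 domain of 33527 bp was broken into 19 pieces at 500 EMPs, and the body of Hoxa9 was almost without 500-EMP peaks while Hoxa10 and Hoxa11 were largely covered.

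Nearly every broad domain was also marked in the 500-EMP library. A 500-EMP peak overlapped 857 of 866 domains (99%, interval 98 to 99.5%), against a background of 32.4% of all autosomal 15000-EMP peaks and 76.6% (75 to 78.1%) of the 2858 peaks of 2 to 5 kb. A wider region meets a peak more easily, so the length covered is the closer comparison. The 3732 pieces covered 43.7% of the length of the broad domains, 20.6% of that of the peaks of 2 to 5 kb and 23.2% of that of all autosomal peaks. Pieces per kb numbered 0.526 in broad domains and 0.425 in peaks of 2 to 5 kb, with median widths of 532 and 349 bp. A piece is cut at the border of its region, so narrower regions limit its width, and the part of this was not tested. No test accompanies these values, which come from 1 library each.

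A domain was usually found in several pieces as the 500-EMP peaks were called. The median was 4 (interquartile range 3 to 5), but 2 with 500-EMP peaks joined within 1 kb and 1 within 3 kb. As called, 814 domains (94%, 92.2 to 95.4%) held at least 2 pieces and 41 held at least 10. The gaps between pieces had a median of 597 bp, and the shortest gap in the whole 500-EMP list was 305 bp. From the outer edge of the leftmost piece to that of the rightmost, pieces spanned a median of 77.6% of the domain. Coverage was lowest at the borders, at 19.5% and 21.2% in the outermost twentieths of the width, and lay between 44.5% and 48.1% from the fifth to the fourteenth twentieth. Grouped by the width that selected the domains, and as a description only, coverage ran from 26.8% of the length of peaks of 4 to 5 kb through 32% at 5 to 6 kb and 52.8% at 10 to 20 kb to 60% above 20 kb. In turn 3710 of 9995 autosomal 500-EMP peaks (37.1%) touched a broad domain, and 52.8% of the bases of that list lay inside one. Of the 30 autosomal 500-EMP peaks wider than 5 kb, 29 touched a broad domain.

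Coverage varied widely between domains, with quartiles of 26.3% and 54.2% around a median of 38.7% (36.7 to 40.5%). Most of the 10 highest values lay in or beside Hox and other homeobox genes. The Hoxa10 and Hoxa11 domain of 11202 bp was covered to 93.4% by 2 pieces. A domain that overlapped Hoxb9 and ran past its end was covered to 92.8%, and one 6463 bp from the start of Hoxc13 to 90.8%. Others of the 10 most covered lay near Lbx1 (86.4%) and Prdm16 (85.4%) and at Pdx1, the pancreas regulator (6311 bp, 85.5%). A further domain overlapped Prdm13 (85.1%), and others lay at Hoxb9 (84.1%) and 392 bp from the start of Hoxa11 (83.7%). The remaining member of the 10 held starts of Raet1e and H60b, which encode ligands of an immune receptor, over 13970 bp with 84.7% covered. Genes of this kind have near-identical copies, where reads can be split, and the part of this in the coverage was not tested.

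At the other end, 9 domains held no 500-EMP piece, and all 9 were narrower than 7 kb. They held the starts of Car10 (5344 bp), the potassium channel genes Kcns3 (5111 bp) and Kcnh5 (5274 bp), the hair follicle gene Tchh (6933 bp) and Cdh8, a neuronal cadherin (5286 bp). A domain of 5883 bp lay in Ank2, 249363 bp from the nearest protein-coding start, and another of 5245 bp overlapped Car7. The last pair had no gene, at chr5:115393853-115400498 and on chromosome 18, where Megf10 was the nearest gene at 70789 bp.

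**Figure D2:**
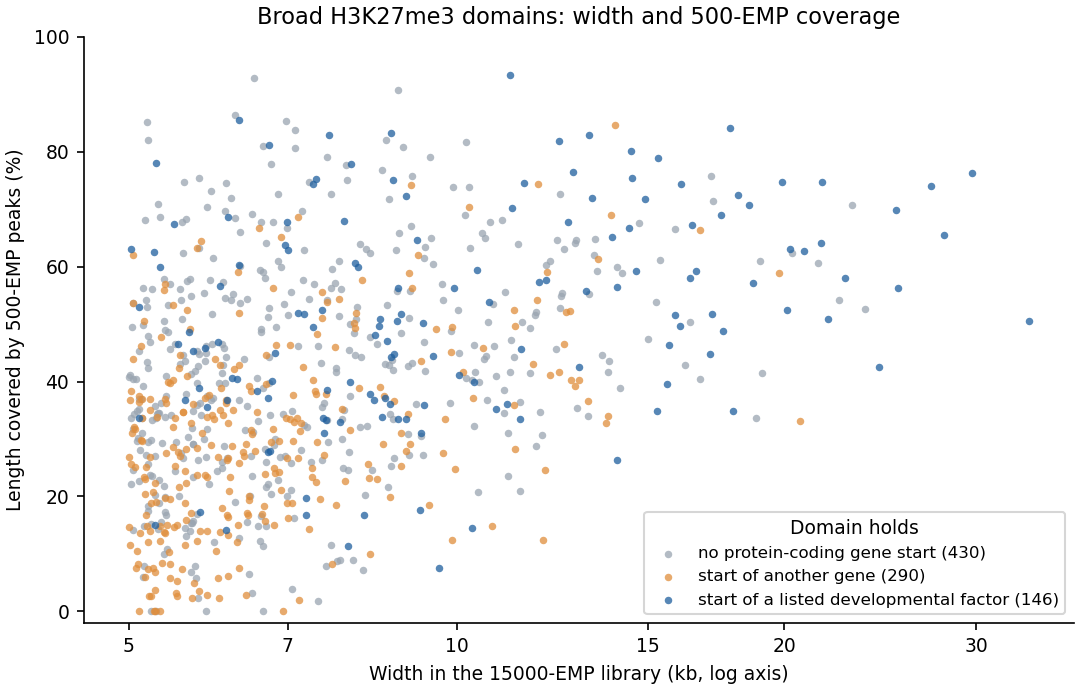
Each of the 866 broad domains by its width in the 15000-EMP library (kb, log axis) and the share of its length covered by 500-EMP peaks (%), coloured by the protein-coding start it holds. Domains with the start of a listed developmental factor (146, blue) had a median coverage of 51.8%, those with another start (290, orange) 29.3%, and those with none (430, grey) 42.5%.

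A protein-coding gene start, taken as the outermost position of the gene in GENCODE, lay in 436 domains (50.3%, 47 to 53.7%), against 12.1% of all autosomal peaks and 30.4% (28.7 to 32.1%) of peaks of 2 to 5 kb. Per length the order turned, with 66.1 starts per Mb in broad domains, 102 per Mb in peaks of 2 to 5 kb and 8.68 per Mb over the autosomes. With starts of any protein-coding transcript, 60.6% of domains held one. Of the 430 without a gene start, 93 held a transcript start, 78 of them among the 173 domains wholly inside a gene, while a few domains held a gene start but no start of a protein-coding transcript. A single start was the rule, with 408 domains, whereas 24 held 2 and 4 held 3 or more. Around a single start, the domain reached a median of 2981 bp upstream and 3919 bp downstream, and further downstream in 266 of 408. In all 469 of 20807 autosomal protein-coding genes (2.25%) started in a broad domain and 1871 (8.99%) in any 15000-EMP peak. Whole protein-coding genes lay in 93 domains, the longest being Shox2 at 10 kb.

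Of the 430 domains without a start, 260 overlapped a protein-coding gene and 170 overlapped none. Their median distance to the nearest protein-coding start was 6.71 kb, and 74 of the 866 lay more than 50 kb from any. The nearest start belonged to a listed developmental factor for 171 of the 430 (39.8%, 35.3 to 44.5%), and for 291 of 1989 peaks of 2 to 5 kb without a start (14.6%, 13.1 to 16.3%). The widest domains with no protein-coding gene within 3 kb spanned 20343 bp at 26371 bp from Tmem33, 19000 bp at 25161 bp from the vein and lymphatic regulator Nr2f2, and 16743 bp at 220406 bp from Mef2c, the last with the miRNA gene Mir9-2. In the location categories of the deposited annotation, 53.9% (50.6 to 57.2%) of domains crossed a gene start or contained a gene, against 32.4% of peaks of 2 to 5 kb and 13% of all autosomal peaks. Domains inside a gene made up 14.3%, upstream 21.2%, downstream 6.7% and across a gene end 10.3%, against 31.2%, 27.2%, 8.85% and 3.6% of peaks of 2 to 5 kb. A gene start is crossed more readily by a wider region, and this was not corrected for.

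Developmental transcription factors made up a large share of the genes. The 16 lists of factor families held 337 autosomal genes, 1.62% of the protein-coding genes, and 155 of them started in a broad domain (46%, 40.7 to 51.3%), against the 2.25% of all genes. They were 33% of the 469 genes. By width class, given as a description, such a start lay in 12.1% of domains of 5 to 10 kb, 23% of 10 to 15 kb and 64.2% above 15 kb, where any protein-coding start lay in 49.6%, 46% and 69.8%. It lay in 1.68% of peaks of 2 to 5 kb. Domains with such a start were covered to 55% of their length by 500-EMP peaks, those with another start to 32.6% and those with none to 44.9%. Their median widths were 8937, 6228 and 6730 bp, and since coverage also differed by width, the part of width in this difference was not tested. The lists leave out some factors, among them Sp8, a limb and brain regulator with a domain of 20670 bp, which was chosen after its value was seen.

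Homeobox families, which assign position along the body axes and identity in the nervous system, held the most members. Of 39 Hox genes 22 started in a broad domain, as did 8 of 9 Dlx and Msx genes, 6 of 9 Pax genes, 8 of 14 Nkx genes, 6 of 12 Lhx, Isl and Lmx genes, 2 of 6 Irx genes, 2 of 6 genes of the sine oculis family (Six3 and Six6) and 37 of 66 other homeobox genes. Over the Hox genes, some of which share a domain, the median width was 13848 bp and the median coverage 74.5%. Those of the other homeobox genes reached from 21644 bp at Vax2, an eye regulator, to 5106 bp at Phox2a, a regulator of autonomic neurons, with a median coverage of 52.9%. Pax7, which marks muscle stem cells, had 16434 bp with 67.2% covered. The cardiac factor Nkx2-5 had 14881 bp with 71.8% covered and the floor plate factor Nkx2-2 had 15588 bp with 39.5% covered.

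The 4 Hox clusters did not lie in broad domains to the same extent. All 9 Hoxc genes started in one, 7 of 11 Hoxa genes, 4 of 9 Hoxd genes and 2 of 10 Hoxb genes. In Hoxb the 15000-EMP peaks covered 84.5% or more of each gene body from Hoxb6 to Hoxb13. Further along the cluster they covered 72.1% of Hoxb5, 1.36% of Hoxb4, 67.7% of Hoxb3, 54.3% of Hoxb2 and 100% of Hoxb1. Peaks of 500 EMPs covered 45% to 96.5% of the bodies from Hoxb6 to Hoxb13, none of Hoxb4 and 6.68% to 29.4% of those of Hoxb1, Hoxb2, Hoxb3 and Hoxb5. Within Hoxa, the domain of 8220 bp at the start of Hoxa9, a gene that hematopoietic progenitors express, held 2 pieces covering 16.8% of it. The body of Hoxa9 was covered to 92.1% by 15000-EMP peaks and to 0.263% by 500-EMP peaks, whereas its neighbour Hoxa10 was covered to 96.5% and 73.7%. Neighbouring Hoxa9 and Hoxa10 were thus marked alike in the 15000-EMP list and unlike in the 500-EMP list, in 1 library each.

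Among other factor families, all 5 Tfap2 genes, regulators of neural crest and surface ectoderm, started in a broad domain of 7944 to 11452 bp, with 11.3% to 60% covered. The T-box list had 9 of 15, led by the hindlimb gene Tbx4 (13883 bp, 65.1% covered) and including T, the mesoderm gene Brachyury (7003 bp, 62.8%). The forkhead list had 12 of 41, led by Foxa2, Foxb1 (20863 bp) and Foxf2 (20219 bp), and the bHLH list 16 of 47, led by Sim1, Sim2 (21612 bp) and Olig3 (13143 bp). The Sox list had 8 of 18. Sox1, of the neural plate, had 16027 bp with 49.7% covered, while the cartilage regulator Sox9 had 9637 bp with 7.59% covered, the lowest coverage among the listed factors. Gata3, Gata4 and Gata5 made 3 of 5, the zinc finger list 10 of 41, led by Prdm12 (20123 bp), and Ebf2 was 1 of 4. Nuclear receptors, counted apart from the 16 lists, had 4 of 45, Nr2e1, Nr2f2, Esrrg and Pgr.

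Lists of signalling genes are small, and against the 2.25% of all protein-coding genes the interval of the Frizzled list (1.79 to 40.4%) holds the background and those of the Notch (2.65 to 28.9%) and Fgf (2.79 to 30.1%) lists begin just above it. Of 19 Wnt ligand genes 7 started in a broad domain. Wnt1, the midbrain organiser, had the widest (19782 bp, 58.9% covered) and Wnt16 the narrowest (5461 bp, 5.86%). Of 10 Frizzled receptor genes only Fzd2 did (6158 bp), and of 12 Wnt antagonist genes Notum and Sfrp5 did. The Hedgehog ligands Shh (5451 bp), Ihh (7380 bp) and Dhh (5046 bp) all did, and no other of the 10 Hedgehog genes. Of the BMP and activin genes, the ligands Bmp7, Gdf7 and Bmp3 were members (3 of 28), as were the antagonists Chrd, Chrdl2, Nog and Nbl1 (4 of 11). Fgf2 and Fgf17 were 2 of 20 Fgf genes. Dll1, a Notch ligand (12182 bp), and Hes5, a Notch target (9267 bp), were 2 of 21, and Cyp26a1, Crabp2 and Aldh1a2, which degrade, bind and make retinoic acid, were 3 of 12.

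**Figure D3:**
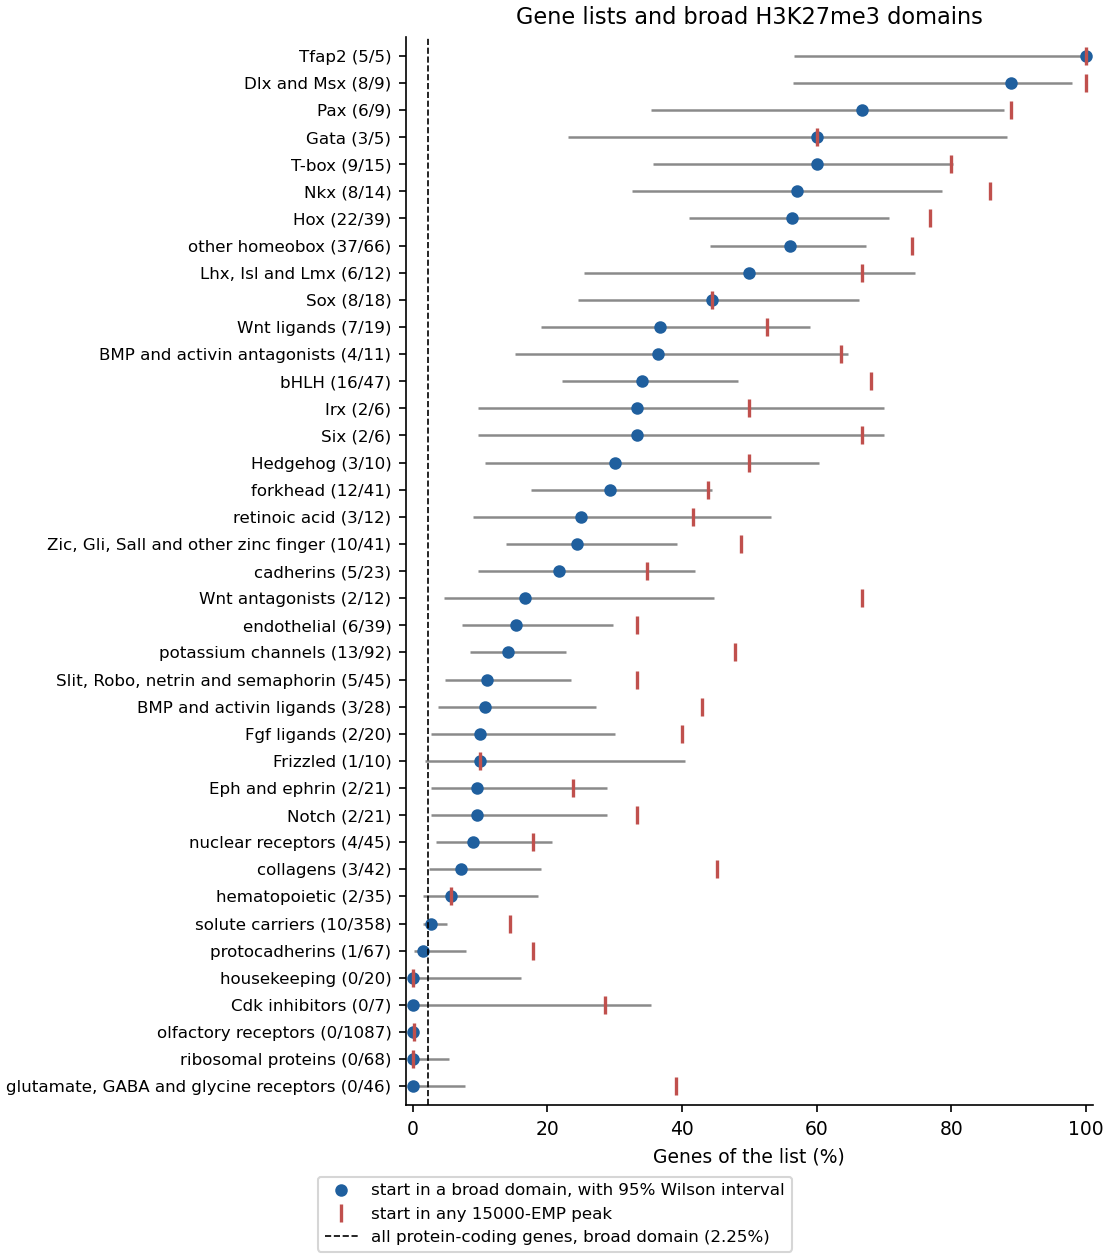
Share of each list's autosomal protein-coding genes (%, lists of 5 or more genes) whose start lay in a broad domain, as points with 95% Wilson intervals, and in any 15000-EMP peak, as red ticks; the dashed line is the 2.25% of all protein-coding genes. The developmental factor families shown sit between 24.4% and 100%, and housekeeping, ribosomal and olfactory receptor genes at 0%. Of these 0% lists, only the olfactory receptor interval (up to 0.352%) ends below the dashed line.

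Neuronal and structural gene families stand beside 2.25% (broad) and 8.99% (any peak) of all protein-coding genes. Potassium channel genes were members in 13 of 92 cases, widest at Kcnh3 (8082 bp), and 47.8% of them started in some peak. Of 46 genes for glutamate, GABA and glycine receptors none started in a broad domain, which allows a share of up to 7.71%, while 39.1% started in some peak. Of collagens 3 of 42 were members and 45.2% started in some peak. Of cadherins 5 of 23 were members (Cdh1, Cdh3, Cdh8, Cdh11 and Cdh13) and 34.8% started in some peak. Members numbered 5 of 45 for Slit, Robo, netrin and semaphorin genes, led by Ntn1 (13479 bp), 2 of 21 for Eph and ephrin genes, 1 of 67 for protocadherins (Pcdh10) and 10 of 358 (2.79%) for solute carriers, the last close to the background. Of these 4 lists 33.3%, 23.8%, 17.9% and 14.5% started in some peak. No start of 68 ribosomal protein genes, 1087 olfactory receptor genes or 20 housekeeping genes lay in a broad domain. These counts allow shares of up to 5.35%, 0.352% and 16.1%, of which only that of the olfactory receptor genes lies below 2.25%. In any peak, 2 of the olfactory receptor genes (0.184%) had their start. The Cdk inhibitors had 0 of 7, which allows a share of up to 35.4%. With starts within 3 kb of a domain counted they had 3 of 7 (42.9%), beside 614 of all 20807 protein-coding genes. Domains of 12842 and 7681 bp overlapped Cdkn2a and one of 10290 bp overlapped Cdkn2b, the senescence-associated inhibitors. These belonged to a run of 5 domains between 89269551 and 89380405 on chromosome 4. A domain of 12468 bp overlapped Cdkn2c.

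Among endothelial genes, 6 of 39 were members (15.4%, 7.25 to 29.7%). Sox17, a regulator of arterial and hemogenic endothelium, had 15288 bp with 34.9% covered, and the venous factor Nr2f2 had 11876 bp with 74.4% covered. Gata4 (8005 bp, 77.9%), Sox7 (5634 bp, 36.7%) and the basement membrane genes Col4a1 and Col4a2, which share a domain of 6224 bp (28.7%), made up the rest. Sox17, Nr2f2, Gata4 and Sox7 are also in factor or receptor lists, so these counts overlap. Of 35 hematopoietic genes 2 were members (5.71%, 1.58 to 18.6%), Hoxa9 and Gfi1, a transcriptional repressor that acts in blood development (7489 bp, 19.5% covered), and no other gene of that list started in any peak. The interval holds the 2.25% of all protein-coding genes, and the same 5.71% in any peak stands beside 8.99% of all genes. The 8 markers of the sorted cells, Kit, Itga2b, Ptprc, Runx1, Myb and Spi1 among them, had no peak of either library within 3 kb (0 of 8). Over all protein-coding genes this share was 17.6%, and 17.5% for the 15000-EMP list alone, and a count of 0 in lists of 8 or 4 genes is not read as a difference from it. Of the markers of other cells of the yolk sac, the macrophage list had a peak at 0 of 4, the endothelial list at 1 of 6 (274 bp at Kdr), the primitive erythroid list at 1 of 3, the visceral endoderm list at 1 of 4 and the mesenchyme list at 4 of 4. Of these Foxa2 and Pdgfra, a mesenchymal receptor, started in a broad domain. A peak list does not show the level of a transcript, and the share of other cells in the libraries was not tested.

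Non-coding genes were members too. Starts of 178 of 9426 lncRNA genes (1.89%) and 20 of 2054 miRNA genes (0.974%) lay in broad domains, beside 2.25% of protein-coding genes, so the lncRNA share was close to that background. All 3 Mir9 genes and all 3 Mir196 genes were among them, with 1 of 2 Mir10 genes and 1 of 3 Mir124a genes. Mature 5p sequences of Mir9, Mir196 and Mir10b are shown with their seeds, bases 2 to 8, in capitals, as listed by RefSeq for GRCm38, which named mature sequences for 15 of the 20. The Mir9 genes, known for their role in neural progenitors, lay in domains of 11389, 16743 and 5801 bp (63.9%, 40.5% and 75.5% covered). The Mir196 genes lie in the Hox clusters, in domains at Hoxb9 (17826 bp), Hoxc10 (25335 bp) and Hoxa9 (8220 bp). Their products miR-196a-5p and miR-196b-5p share a seed. Mir10b lay in a domain of 6082 bp in the Hoxd cluster.
miR-9-5p: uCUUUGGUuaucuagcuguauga
miR-196a-5p: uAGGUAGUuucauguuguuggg
miR-196b-5p: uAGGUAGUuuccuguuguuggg
miR-10b-5p: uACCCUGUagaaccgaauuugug

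The distance from a broad domain to the nearest other one had a median of 129 kb. Of the 866, 423 (48.8%, 45.5 to 52.2%) had another within 100 kb and 239 (27.6%) within 5 kb, and 143 had a gap under 1 kb to their neighbour. Neighbours within 100 kb formed 153 runs, 56 of them with 3 or more domains. The largest held 16 domains over 244 kb (chr15:102905803-103149436) that take in the Hoxc cluster and a stretch beyond Hoxc4 in which the domains overlapped no protein-coding gene. They filled 68.3% of that span and were covered to 68.4% by 500 EMPs. Hoxa followed with 11 domains over 161 kb, and Hoxd with Evx2 had 9 over 119 kb. Runs of 6 lay at Pax2, a kidney and midbrain regulator, and at Cdk5r2, Fev and Ihh. The latter run also overlapped Wnt6 and Wnt10a, which did not start in a broad domain. Several runs of 5 followed, of which that over Hoxb13 and Hoxb9 had the greatest summed domain length (68 kb). A narrower peak lay within 10 kb of 710 domains (82%). Because the caller breaks a region where signal falls, a run can be a single marked region, and joining peaks within 3 kb before the width limit gave 1746 domains, of which 42.8% lay within 100 kb of another.

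The density of domains ranged over the chromosomes. Per 100 Mb there were 36.1 domains over all autosomes, with 61.8 on chromosome 19, 59.8 on chromosome 11 and 50.5 on chromosome 2. The fewest were on chromosome 10 (19.7) and chromosome 16 (20). As a share of all peaks the spread was narrower, from 4.25% on chromosome 17 to 8.5% on chromosome 3.

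**Figure D4:**
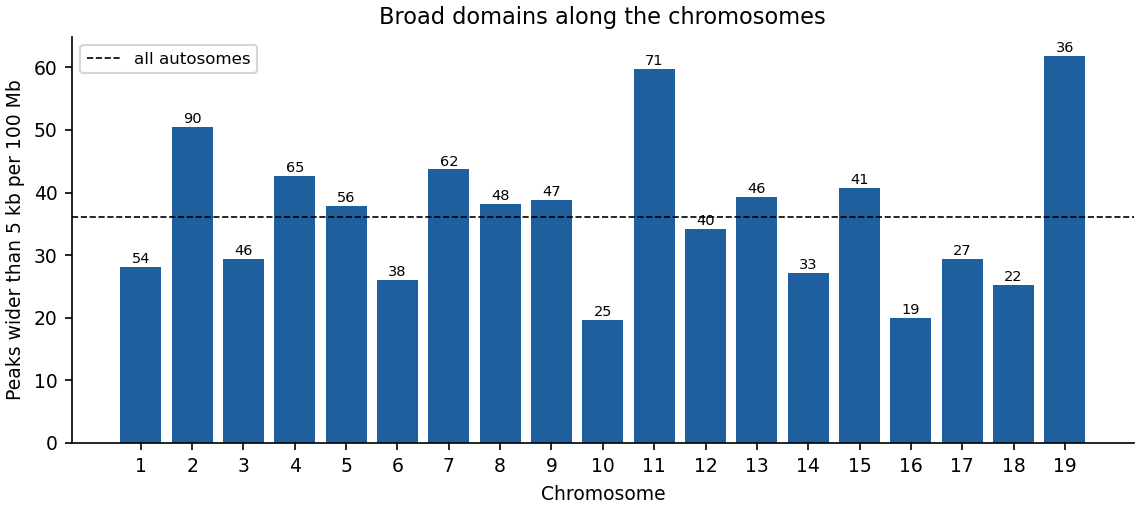
Broad domains per 100 Mb of known sequence on each autosome (bars, with the number of domains above each) and over all autosomes (dashed line, 36.1). Chromosomes 19, 11 and 2 stand highest and chromosomes 10 and 16 lowest.

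The DNA of the broad domains was richer in CpG and poorer in repeats than the autosomes, as was that of narrower peaks. They held a median of 2.55 CpG per 100 bp (2.45 to 2.64), against 2.39 (2.33 to 2.45) in peaks of 2 to 5 kb, 1.35 in peaks up to 2 kb and 0.851 over the autosomes. Their GC content was 50.4%, against 51.1% in peaks of 2 to 5 kb and 41.9% over the autosomes. Soft-masked repeats made up 14.2%, against 13% in peaks of 2 to 5 kb, 11.6% in peaks up to 2 kb and 33.5% over the autosomes. Windows that met the criteria of a CpG island (GC of at least 50% and an observed-to-expected CpG ratio of at least 0.6 over 200 bp) covered a median of 21.2% of a domain and 1.86% of the autosomes. Of the 866, 830 held such a window.

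Inside the domains, the CpG-densest DNA was the least covered by 500-EMP peaks. In the 820 domains with at least 500 bp both covered and uncovered, the covered part held a median of 2.09 CpG per 100 bp and the uncovered part 2.77, and the covered part was the richer in 245. In windows of 200 bp, 42.5% of bases were covered where there was no CpG, 49.7% at 6 to 9 CpG, and 21.5% at 15 or more. The middle of the CpG-richest window lay in a piece in 188 of 866 domains (21.7%, 19.1 to 24.6%), in 66 of the 436 with a gene start and in 122 of the 430 without. These windows were not limited to sequence outside untranslated regions, unlike those printed above. A like dip stood at the 469 gene starts. They were chosen for lying in a 15000-EMP peak, which fixes the 99.6% that those peaks covered of the 100 bp just upstream. In the 500-EMP list, which was not used to choose them, coverage was 29.7% there, 46.6% at 600 to 700 bp upstream and 47.9% at 1300 to 1400 bp downstream. The dip cannot be told apart from the differences in depth, alignment rate, read length, amplification and calling between the libraries.

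**Figure D5:**
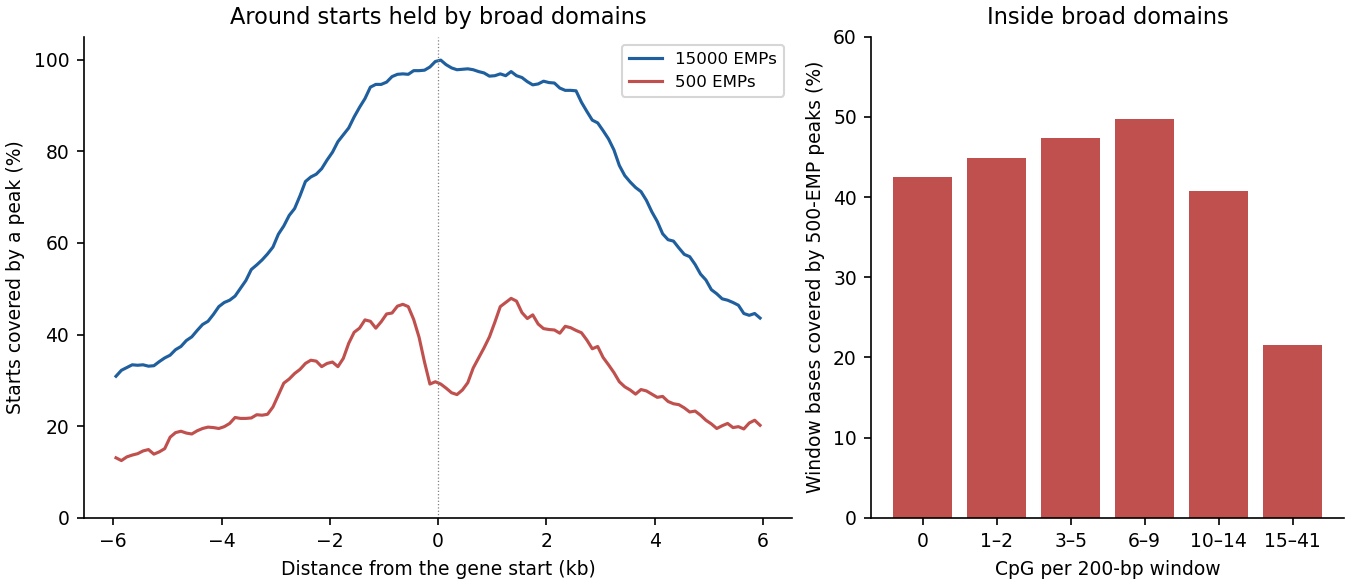
Left, share of the 469 protein-coding starts held by broad domains that a peak covers (%), by distance from the start along transcription (kb), for the 15000-EMP (blue, near 100% at the start by the choice of starts) and 500-EMP (red) peaks. Right, share of window bases covered by 500-EMP peaks (%) in windows of 200 bp inside broad domains by their CpG count, which falls to 21.5% at 15 or more.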

How the data were processed

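The authors aligned CUT&RUN reads to mm10 (GRCm38) with Bowtie2 (version 2.2.1). MACS2 (version 2.1.2) in broad mode then gave a peak list for each H3K27me3 library against the IgG library of a matching cell number, at a p of 0.01 for 500 EMPs and 0.05 for 15000 EMPs. Their command listing names the other cell number under each threshold, and each deposited list was assigned by its label. The lists held peak positions without a score, count or p-value, and a deposited annotation table, made by the authors with ChIPpeakAnno, gave a location category and a distance to genes, of which other columns were not used. Depth can therefore not be read from the files, and the study's reporting summary states fewer reads and a lower alignment rate for 500 EMPs. Peaks of the 15000-EMP list on chromosomes 1 to 19 wider than 5 kb were taken as broad domains, and any overlap of at least 1 bp with a 500-EMP peak counted. Gene positions came from GENCODE release M21 and sequence from the GRCm38.p6 reference, and no peak ran past a chromosome end.

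Groups came from the sample labels. Named domains were the 10 widest, the 10 most covered, all without a piece, the 6 largest runs, the widest 3 without a gene and 3 on each side of the limit. All members of short lists and those with the widest domains of longer lists were named, except a few items that are not reported here. The domains and the 40 gene lists were chosen with earlier results of these data known. Shares have Wilson intervals at 95%, and a count of 0 allows the upper Wilson bound. Interval routines were tested on simulated intervals. Alternatives varied the width limit, joining, overlap, gene position and chromosomes. Analyses used Python 3.11.15, NumPy 2.4.6, pandas 2.3.3, SciPy 1.17.1 and Matplotlib 3.10.9.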

Additional observations from a re-analysis of the deposited data

Results flagged for a closer look

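The X chromosome lay outside the comparisons above. It held 9 peaks of the 15000-EMP list wider than 5 kb among 310 peaks (2.9%), or 5.5 per 100 Mb against 36.1 on the autosomes. They were noted because they are a signal in data that the comparisons did not use. A pair of them lay at the starts of Pcsk1n (5072 bp, 18.8% covered by 500-EMP peaks) and Sowahd (6107 bp, 6.83% covered). All 9 held a 500-EMP piece.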

How the results depend on the processing

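Of 52 alternatives for the 10 main results, 20 stayed within the counting interval or within 1.5 times a count. A width limit of 4 kb gave 1316 domains, 97.3% of them overlapped by a 500-EMP peak, a median of 3 pieces, 40% of the length covered and 53.3% within 100 kb of another. A limit of 10 kb gave 179 domains, 100% overlapped, 7 pieces, 54.2% covered, 115 genes, 26.3% within 100 kb of another and 21.4% of the listed factors. Joining peaks within 1 kb gave 1527 domains, and within 3 kb 1746, of which 91% were overlapped and 42.8% lay within 100 kb of another. Overlap of at least 10% or 50% of a domain held for 93.9% and 31.6%. Joining 500-EMP peaks within 1 kb gave a median of 2 pieces and 60.7% covered, and within 3 kb 1 piece and 78.4%, while leaving out the 500-EMP peaks of the smallest width gave 3 pieces. A gene start lay within 3 kb of 68.4% of domains, 57.5% held a start once lncRNA were added, and 60.6% held a transcript start, an alternative chosen after seeing the data. The share across a start was 50.3% by GENCODE in place of 53.9% by the deposited categories. Counting any part of a gene gave 709 genes, and the deposited distances up to 3 kb gave 732. Distances of 50 and 500 kb gave 42.1% and 65.2% of domains near another. With starts within 3 kb, 61.4% of the listed factors were counted. The causes of these shifts were not tested beyond what each setting does by construction. For single gene lists, 85 of 120 alternatives stayed within the interval. No paired analysis was possible because each group held 1 library. The lists carry no depth or score, so a missing piece shows only that no peak was called there.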
